A study of Mus musculus with 9 samples.

Results

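The genes described here encode collagens, the enzymes that build and cross-link them, and other extracellular matrix proteins. They were taken by symbol from a list of 42 matrix genes, and 40 of them were measured among the 30050 genes of the arrays. Loxl2 lay only in a transcript cluster with several symbols, and Fbn1 was not analysed here. Affymetrix arrays, 9 in all, measured RNA of HL-1 cells, as the labels call them, a proliferating line derived from mouse atrial cardiomyocytes. DOX plus IFN-γ cells (3 arrays) received 0.3 µM doxorubicin, an anthracycline drug that damages DNA, with 20 ng/ml interferon gamma, a cytokine. DOX cells (3 arrays) received 0.3 µM doxorubicin alone, and Con cells (3 arrays) received phosphate-buffered saline. How long the cells were treated was not stated in the labels, and no arrays of interferon gamma alone were analysed here. The labels do not say if replicates were separate cultures, so the spread behind each p-value is that between arrays and may be technical.

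Collagens are secreted proteins of 3 chains wound into a triple helix. Prolyl and lysyl hydroxylases modify the chains in the endoplasmic reticulum, the chaperone Hsp47 (Serpinh1) assists their folding, and lysyl oxidases cross-link the fibres outside the cell. In the heart, fibroblasts are the main source of type I and type III collagen, while laminins, type IV collagen and nidogen form the basement membrane around muscle cells.

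All levels below are log2 expression values as the authors deposited them, and a difference of 1 is a doubling. Genes with an adjusted p under 0.05 count as called (limma, Benjamini-Hochberg over 30050 genes). A gene was described as dim when its mean over the 9 arrays lay under 4.75, the 95th percentile of 1225 olfactory receptor genes, which stand for genes taken as not expressed. Of the 40 matrix genes, 26 lay above that limit.

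Several defining heart muscle genes were dim in these cells. Con arrays averaged 4.29 for Myh6, 3.97 for Nppa, 4.12 for Myl7 and 4.03 for Gata4, all under the limit, while Tnnt2 averaged 7.94 ± 0.18 and Nkx2-5 averaged 5.39 ± 0.08 (SD, n = 3). Of 13 measured cardiomyocyte markers 3 lay above the limit, against 4 of 7 fibroblast markers, 3 of 6 smooth muscle and pericyte markers, 3 of 8 skeletal muscle markers, 0 of 6 endothelial markers and 1 of 6 immune markers. Fibroblast markers moved in both directions in DOX minus Con, with Ddr2 and Thy1 higher by 0.91 and 0.21, S100a4 and Pdgfrb lower (-3.03 and -0.29) and Vim at 0.04 not called. Their summed level on the linear scale was 67588 to 67846 in DOX plus IFN-γ arrays, 66992 to 67898 in DOX arrays and 63337 to 68350 in Con arrays, most of it Vim. Smooth muscle and pericyte markers summed to 32434 to 34571 in DOX plus IFN-γ arrays, 32174 to 40004 in DOX arrays and 46550 to 51619 in Con arrays, with Cnn1 (-1.29) and Acta2 (-0.47) lower in DOX. Of these 6 markers, 2 were called lower in DOX minus Con and 4 were not called. Their median difference was -0.05, with 5 below 0 and 1 above. Cardiomyocyte markers summed to 331 to 333 in DOX plus IFN-γ arrays, 337 to 350 in DOX arrays and 461 to 510 in Con arrays. Tnnt2 made the largest part of the Con sum and was the 1 of 13 called in DOX minus Con (-1.24). The median difference of the 13 was 0.01, with 6 below 0 and 7 above. Skeletal muscle markers summed to 353 to 404 in DOX plus IFN-γ arrays, 400 to 469 in DOX arrays and 729 to 869 in Con arrays. In DOX minus Con 2 of 8 were called lower, Myog (-3.42) among them, and 2 higher. Differences of the 8 ran from -3.42 to 0.76, with a median of -0.06. Over all genes, 7.53% were called lower and 8.06% higher in that comparison. The part of all these markers in the matrix results was not tested, and fewer cells of a type cannot be told apart from less RNA per cell.

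Con replicate 3 often stood apart from the other Con arrays. It held the lowest Con value of 21 of the 40 matrix genes and the highest of 16. The median SD over the matrix genes was 0.04 in DOX plus IFN-γ, 0.05 in DOX and 0.07 in Con. Without that array, 2 matrix genes were called higher and 18 lower in DOX minus Con, against 2144 and 2249 of all genes. In DOX plus IFN-γ minus Con, 2 and 18 matrix genes were called, against 2041 and 2602 of all genes. Con replicate 1, the DOX arrays and DOX plus IFN-γ replicates 1 and 2 also shared a maximum of 19.9 and 82 to 186 exactly identical values pairwise, against 1 to 17 in pairs with any other array.

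The promoter windows of 4 matrix genes are shown because their RNA moved most among those with a RefSeq entry (GRCm38.p6): Col1a2 and Col3a1, which fell, and P4ha1 and Tnc, which rose. Each is the 250 bases before the annotated start, searched on both strands. The motifs searched were the CCAAT box, then the GC box with the letters GGGCGG, then the core of a hypoxia response element with the letters ACGTG, and last the TATA box with the letters TATAAA. Matches are in capitals, so that ACGTG on the other strand reads CACGT. Positions count back from -1, the base before the start. The windows are Col1a2 at chr6:4505368-4505617 on the plus strand, Col3a1 at chr1:45311288-45311537 on the plus strand, P4ha1 at chr10:59323046-59323295 on the plus strand and Tnc, first start, at chr4:64047016-64047265 on the minus strand.
Col1a2: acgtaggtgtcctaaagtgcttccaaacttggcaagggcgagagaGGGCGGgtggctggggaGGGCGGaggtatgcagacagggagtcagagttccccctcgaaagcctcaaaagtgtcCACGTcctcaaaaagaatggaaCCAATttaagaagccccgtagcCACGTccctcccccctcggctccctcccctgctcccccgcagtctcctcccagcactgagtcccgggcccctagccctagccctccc
Col3a1: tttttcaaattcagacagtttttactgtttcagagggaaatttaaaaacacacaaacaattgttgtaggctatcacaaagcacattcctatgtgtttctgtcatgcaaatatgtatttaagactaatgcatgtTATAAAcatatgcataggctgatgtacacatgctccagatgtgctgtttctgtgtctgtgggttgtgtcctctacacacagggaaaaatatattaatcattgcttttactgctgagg
P4ha1: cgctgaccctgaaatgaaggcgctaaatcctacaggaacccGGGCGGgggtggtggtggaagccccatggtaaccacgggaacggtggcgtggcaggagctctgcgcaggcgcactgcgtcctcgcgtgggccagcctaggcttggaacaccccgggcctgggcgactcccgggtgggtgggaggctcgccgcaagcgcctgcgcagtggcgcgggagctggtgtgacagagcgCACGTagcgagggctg
Tnc: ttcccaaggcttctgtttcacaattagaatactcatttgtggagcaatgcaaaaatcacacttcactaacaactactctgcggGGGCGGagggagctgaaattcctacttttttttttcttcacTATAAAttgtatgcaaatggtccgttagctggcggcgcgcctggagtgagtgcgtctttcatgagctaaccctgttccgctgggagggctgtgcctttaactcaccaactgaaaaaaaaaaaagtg
These windows differed in base composition, at 62.0% G and C in Col1a2, 35.2% in Col3a1, 69.6% in P4ha1 and 44.8% in Tnc. Col1a2 held CCAAT from -109 to -105, GGGCGG starting at -205 and -188, and CACGT starting at -131 and -87. Col3a1 held TATAAA alone, from -117 to -112. P4ha1 held GGGCGG starting at -209 and CACGT from -16 to -12, and Tnc held GGGCGG starting at -167 and TATAAA starting at -126. Of 40 matrix genes, 25 had an entry. The GC box was in the windows of 17 of these 25, against 32.7% of 32851 promoter windows, the CCAAT box in 9 (33.8%), the hypoxia core in 5 (16.6%) and the TATA box in 5 (12.4%). A matrix gene counted when any of its windows held the motif (29 windows in all). The percentages count single windows, so they are not like for like. The windows of matrix genes had a median of 62.0% G and C, against 52.4% over all windows. A match is a run of letters, not a measured binding site.

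Doxorubicin-treated cells carried less RNA of fibrillar collagens and of several collagen-building enzymes, and more RNA of P4ha1 and Tnc, than Con cells. Fn1 was also called higher, but in DOX minus Con only 6 of 17 fits called it, the main fit among them. Of the fibrillar collagens, Col5a2 was called there in only 6 and Col11a1 in only 7 of the 17 fits. In DOX minus Con, 3 of the 40 matrix genes were called higher and 18 lower, with 19 not called. Over all 30050 genes, 15.6% were called, 8.06% higher and 7.53% lower, and among the genes above the dim limit 15.9% were called lower. The median difference of the matrix genes was -0.16, against -0.01 over all genes. In DOX plus IFN-γ minus Con, 3 were called higher and 19 lower, against 8.01% higher and 9.41% lower over all genes (17.4% in all), with a median of -0.18 against -0.02. The arrays of DOX and Con did not overlap for 4 higher and 26 lower matrix genes, against 15.7% and 17.2% of all genes (32.9% in either direction). For DOX plus IFN-γ and Con they did not overlap for 3 higher and 26 lower, against 14.5% and 18.5% of all genes (33.0% in either direction). These comparisons share the Con arrays, so they are not independent of each other. The 20 matrix genes called the same way in both have no matching count over all genes here.

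**Figure D1:**
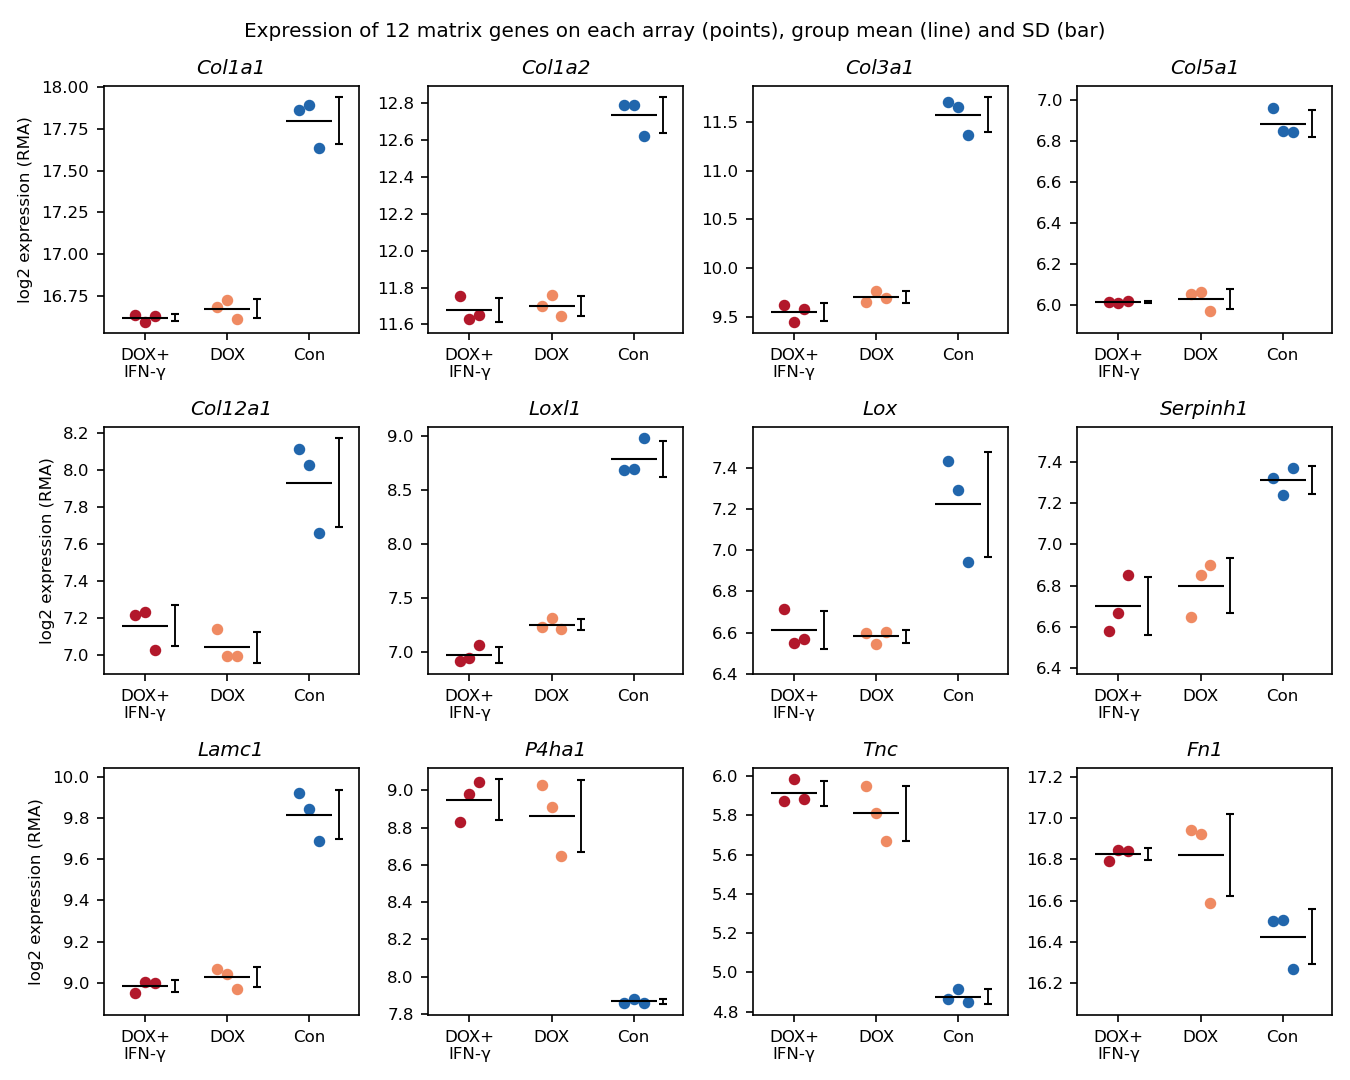
Levels of 12 matrix genes (log2 expression) by treatment, with DOX plus IFN-γ left of DOX and Con, where each point is 1 array, each line a group mean and each bar the SD of 3 arrays. Col3a1 lay between 9.45 and 9.77 on the treated arrays and between 11.37 and 11.70 on the Con arrays, while P4ha1 lay between 8.65 and 9.04 on the treated arrays and between 7.86 and 7.88 on the Con arrays.

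Fibrillar collagens, which form the tensile fibres of connective tissue, were all 6 called lower in DOX minus Con. All 6 lay above the dim limit, where 15.9% of genes were called lower. Col3a1, the chain of type III collagen, had levels of 9.63, 9.45 and 9.58 in DOX plus IFN-γ, 9.65, 9.77 and 9.69 in DOX and 11.70, 11.65 and 11.37 in Con. It differed by -1.87 (SE 0.0926, 95% interval -2.08 to -1.66) in DOX minus Con, 3.65-fold lower at an adjusted p = 1.16e-05. It differed by -2.02 in DOX plus IFN-γ minus Con, at an adjusted p = 8.04e-06. Every treated array lay below every Con array by more than the spread within any group.

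The chains of type I collagen, the main collagen of scar and bone, fell together. Col1a1 had levels of 16.63, 16.59 and 16.63 in DOX plus IFN-γ, 16.68, 16.72 and 16.61 in DOX and 17.87, 17.90 and 17.64 in Con, among the brightest matrix genes. It was 2.19-fold lower in DOX than in Con (difference -1.13, SE 0.0729, adjusted p = 2.99e-05) and 2.27-fold lower in DOX plus IFN-γ than in Con (adjusted p = 2.59e-05). Col1a2 had levels of 11.75, 11.63 and 11.65 in DOX plus IFN-γ, 11.70, 11.76 and 11.65 in DOX and 12.79, 12.79 and 12.62 in Con. The Col1a2 difference was -1.03 in DOX minus Con (SE 0.0652, adjusted p = 2.73e-05) and -1.05 in DOX plus IFN-γ minus Con (adjusted p = 2.59e-05). In both genes Con replicate 3 was the lowest Con array and still lay well above all treated arrays.

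Type V and type XI collagens start and size the fibrils, and their genes were lower in DOX as well. Col5a1 had levels of 6.02, 6.01 and 6.02 in DOX plus IFN-γ, 6.06, 6.06 and 5.97 in DOX and 6.96, 6.85 and 6.84 in Con, a difference of -0.85 in DOX minus Con (SE 0.0520, adjusted p = 2.47e-05). Col5a2 had levels of 8.18, 8.26 and 8.24 in DOX plus IFN-γ, 8.42, 8.45 and 8.31 in DOX and 8.94, 8.81 and 8.52 in Con. Its difference was -0.36 in DOX minus Con (SE 0.101, adjusted p = 0.0452) and -0.53 in DOX plus IFN-γ minus Con (adjusted p = 0.00739). Col5a2 is the neighbour of Col3a1 on mouse chromosome 1, with 0 coding genes between them. Col11a1 had levels of 5.62, 5.58 and 5.49 in DOX plus IFN-γ, 5.49, 5.52 and 5.52 in DOX and 5.85, 5.73 and 5.65 in Con, and was called in DOX minus Con (-0.23, adjusted p = 0.0436) but not in DOX plus IFN-γ minus Con (-0.18, adjusted p = 0.0984). With the set of arrays that share identical values as a block, Col11a1 was called in both (-0.32, adjusted p = 0.0113, and -0.22, adjusted p = 0.0219). Only that 1 of 17 fits called Col11a1 in DOX plus IFN-γ minus Con. The DOX minus Con call of Col5a2 was lost when any array but Con replicate 3 was left out (adjusted p 0.0635 to 0.136) or with that block (0.0512), and that of Col11a1 when any array but Con replicate 3 or DOX plus IFN-γ replicate 3 was left out (0.0529 to 0.130). Both calls were also lost with only the arrays of the groups compared (Col5a2 0.0994, Col11a1 0.0749). A prior variance with trend lost both as well (Col5a2 0.0633, Col11a1 0.0510).

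**Figure D2:**
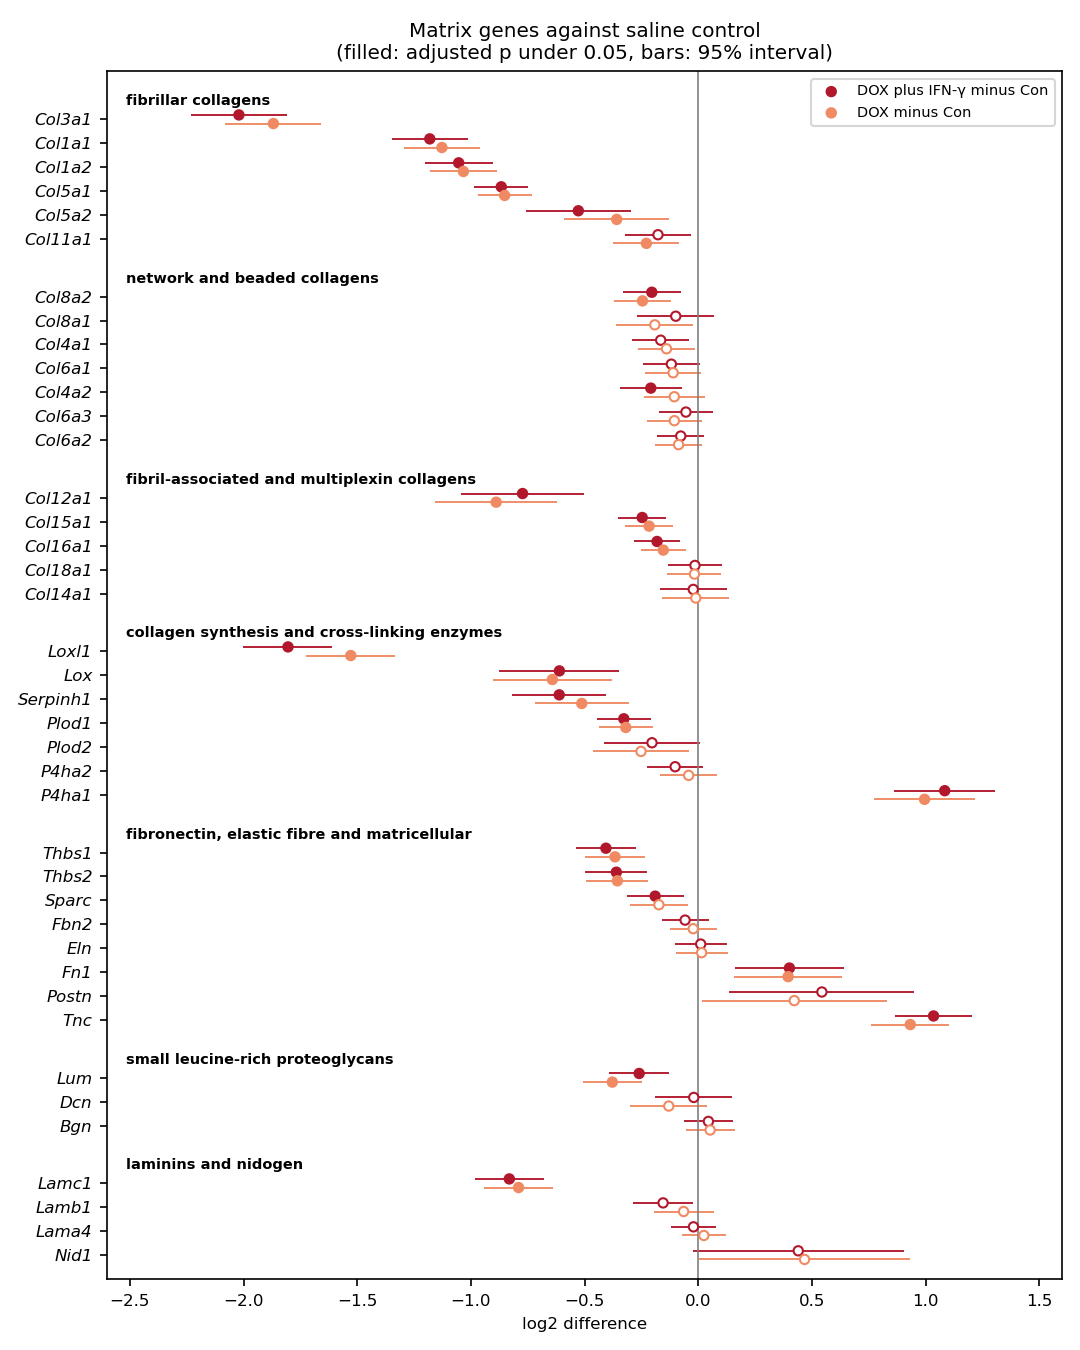
Differences from Con (log2) of the 40 matrix genes grouped by role, with DOX plus IFN-γ minus Con above DOX minus Con for each gene, bars as 95% intervals and filled points for an adjusted p under 0.05. The fibrillar collagens lie left of 0, down to -2.02 for Col3a1, while P4ha1 (1.00 in DOX) and Tnc (0.93 in DOX) lie to the right.

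Network and beaded collagens had small differences from Con, and 5 of the 7 were dim, where RMA compresses differences. All 7 lay lower in DOX than in Con with no overlap of arrays, as did 17.2% of all genes. Of the 7 genes, 1 was called lower in DOX minus Con and 2 in DOX plus IFN-γ minus Con, against 7.53% and 9.41% of all genes. The DOX minus Con differences lay between -0.25 and -0.09. Type IV collagen forms the sheet of basement membranes, and its chains Col4a1 (-0.14, adjusted p = 0.135) and Col4a2 (-0.11, adjusted p = 0.309) were not called in DOX minus Con. These neighbours lie head to head on opposite strands of mouse chromosome 8, with annotated starts 21 bases apart. Col4a2 was called in DOX plus IFN-γ minus Con (-0.21, adjusted p = 0.0431), a call lost when any array but DOX replicate 2 or 3 was left out (0.0647 to 0.136). The type VI chains Col6a1 (-0.11), Col6a2 (-0.09) and Col6a3 (-0.11) and the type VIII chain Col8a1 (-0.19) were dim and not called. Col8a2 was dim as well and was called in DOX minus Con (-0.25, adjusted p = 0.0179) and in DOX plus IFN-γ minus Con (-0.20, adjusted p = 0.0368). The Col8a2 calls were lost without Con replicate 1, DOX replicate 1 or DOX replicate 2 in DOX minus Con (0.0576 to 0.0738) and without any array but Con replicate 2 or DOX replicate 3 in DOX plus IFN-γ minus Con (0.0542 to 0.109).

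Among the fibril-associated and multiplexin collagens, 3 of 5 genes were called lower in each comparison with Con. Over all genes, 7.53% were called lower in DOX minus Con and 9.41% in DOX plus IFN-γ minus Con. Col12a1, a collagen that decorates type I fibrils, had levels of 7.22, 7.23 and 7.03 in DOX plus IFN-γ, 7.14, 6.99 and 7.0 in DOX and 8.11, 8.03 and 7.66 in Con. It was 1.85-fold lower in DOX than in Con (difference -0.89, SE 0.118, adjusted p = 0.0012) and 1.71-fold lower in DOX plus IFN-γ than in Con (adjusted p = 0.00233). The other 4 genes were dim. Of these, Col15a1 (-0.22, adjusted p = 0.014) and Col16a1 (-0.15, adjusted p = 0.0466) were called lower in DOX minus Con, while Col14a1 (-0.01) and Col18a1 (-0.02) were not called. The Col16a1 call was lost when any 1 array was left out (0.0664 to 0.148), and the Col15a1 call without Con replicate 2 or DOX replicate 1 (0.0530 and 0.0593). Both calls were also lost with the set of arrays that share identical values as a block (Col16a1 0.130, Col15a1 0.0835). Col15a1 (-0.25, adjusted p = 0.007) and Col16a1 (-0.18, adjusted p = 0.0219) were also called lower in DOX plus IFN-γ minus Con, and Col16a1 lost its call without Con replicate 2, DOX plus IFN-γ replicate 1 or DOX plus IFN-γ replicate 3 (0.0642 to 0.0718).

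Of the 7 collagen-building enzymes, 4 were called lower and 1 higher in DOX minus Con. All 7 lay above the dim limit, where 15.9% of genes were called lower and 17.7% higher. P4ha1, the catalytic chain of the prolyl hydroxylase that stabilizes the collagen helix, had levels of 8.83, 8.98 and 9.04 in DOX plus IFN-γ, 9.03, 8.91 and 8.65 in DOX and 7.86, 7.88 and 7.86 in Con. It was 1.99-fold higher in DOX than in Con (difference 1.00, SE 0.0975, adjusted p = 0.000243) and 2.12-fold higher in DOX plus IFN-γ than in Con (adjusted p = 0.000147). The treated arrays lay well above the Con arrays, which differed among themselves by very little. Its relative P4ha2 was not called (-0.04 in DOX minus Con, adjusted p = 0.703).

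Lox and Loxl1 are lysyl oxidases, which cross-link collagen and elastin, and both fell. Loxl1 had levels of 6.92, 6.95 and 7.06 in DOX plus IFN-γ, 7.24, 7.31 and 7.21 in DOX and 8.69, 8.69 and 8.98 in Con. It was 2.89-fold lower in DOX than in Con (difference -1.53, SE 0.0856, adjusted p = 1.79e-05) and 3.49-fold lower in DOX plus IFN-γ than in Con (adjusted p = 9.03e-06). All 3 groups of Loxl1 arrays were separate, with DOX plus IFN-γ the lowest. Lox had levels of 6.72, 6.55 and 6.57 in DOX plus IFN-γ, 6.60, 6.54 and 6.61 in DOX and 7.43, 7.29 and 6.94 in Con, a difference of -0.64 in DOX minus Con (SE 0.115, adjusted p = 0.00581) and -0.61 in DOX plus IFN-γ minus Con (adjusted p = 0.00701). Con replicate 3 was the lowest Con array for Lox and remained above the treated arrays.

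Serpinh1, the collagen chaperone, was measured by a pair of transcript clusters that both lay lower in treated cells. The brighter cluster had levels of 6.58, 6.67 and 6.85 in DOX plus IFN-γ, 6.65, 6.85 and 6.90 in DOX and 7.32, 7.24 and 7.37 in Con, a difference of -0.51 in DOX minus Con (SE 0.0905, adjusted p = 0.00531). The dimmer cluster, which was not tested on its own, averaged 5.76 in DOX plus IFN-γ, 6.01 in DOX and 7.08 in Con, a difference of -1.07 in DOX minus Con and -1.32 in DOX plus IFN-γ minus Con. Serpinh1 was called in both, at -0.79 and -0.96, when the clusters were averaged. Plod1, a lysyl hydroxylase, was called lower at -0.32 in DOX minus Con (adjusted p = 0.00368) and at -0.33 in DOX plus IFN-γ minus Con (adjusted p = 0.00301). Plod2, a lysyl hydroxylase of collagen telopeptides, was not called (-0.25 in DOX minus Con, adjusted p = 0.115), but was called without Con replicate 3, also in DOX plus IFN-γ minus Con (-0.36, adjusted p = 0.00609, and -0.32, adjusted p = 0.0111).

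Among fibronectin, elastic fibre and matricellular genes, 2 of 8 were called higher and 2 lower in DOX minus Con. Over all genes the shares were 8.06% and 7.53%, and above the dim limit 17.7% and 15.9%. Tnc encodes tenascin-C, a matrix protein known from injured tissue, and had levels of 5.87, 5.98 and 5.88 in DOX plus IFN-γ, 5.95, 5.81 and 5.67 in DOX and 4.87, 4.92 and 4.85 in Con. It was 1.91-fold higher in DOX than in Con (difference 0.93, SE 0.0748, adjusted p = 8.87e-05) and 2.05-fold higher in DOX plus IFN-γ than in Con (adjusted p = 4.90e-05). The Con arrays lay just above the dim limit and every treated array clearly above them. Fn1, fibronectin, on which cells attach and collagen assembles, had levels of 16.79, 16.85 and 16.84 in DOX plus IFN-γ, 16.95, 16.92 and 16.59 in DOX and 16.50, 16.50 and 16.27 in Con. Its difference was 0.40 in DOX minus Con (SE 0.104, adjusted p = 0.0349) and 0.40 in DOX plus IFN-γ minus Con (adjusted p = 0.0306). The groups did not overlap, but the DOX minus Con call was lost when any array but DOX replicate 3 was left out (0.0521 to 0.125), and the DOX plus IFN-γ minus Con call without Con replicate 2, Con replicate 3 or any DOX plus IFN-γ array (0.0531 to 0.0895).

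The other matricellular genes changed less or varied more between arrays. Sparc, a collagen-binding protein, had levels of 13.89, 13.92 and 13.88 in DOX plus IFN-γ, 13.85, 13.95 and 13.93 in DOX and 14.06, 14.17 and 14.02 in Con, and was not called in DOX minus Con (-0.17, adjusted p = 0.0720), except with the filter on dim genes (adjusted p = 0.0477). It was called in DOX plus IFN-γ minus Con (-0.19, adjusted p = 0.0477), and that call was lost when any array but Con replicate 3 was left out (0.0617 to 0.140). After quantile normalization that difference was 0.30 (adjusted p = 0.0510), in the opposite direction. Postn, periostin, known from activated fibroblasts, had levels of 7.54, 7.33 and 7.12 in DOX plus IFN-γ, 7.24, 7.22 and 7.17 in DOX and 7.17, 6.77 and 6.42 in Con. Its groups overlapped through Con replicate 1, and it was not called in DOX minus Con (0.42, SE 0.178, adjusted p = 0.165) or DOX plus IFN-γ minus Con (0.54, adjusted p = 0.0734). Without Con replicate 1 it was called, at 0.62 (adjusted p = 0.0256) and 0.74 (adjusted p = 0.0114). Without Con replicate 3 the differences were 0.24 and 0.36 and not called (adjusted p = 0.377 and 0.164), and with the set of arrays that share identical values as a block they were 0.12 and 0.39 (adjusted p = 0.677 and 0.0578). Postn was called in DOX plus IFN-γ minus Con with a filter on dim genes (adjusted p = 0.0384) and after quantile normalization (0.59, adjusted p = 0.0412). The thrombospondins, which bind matrix and growth factors, were called lower in DOX minus Con, with Thbs1 at -0.37 (adjusted p = 0.00286) and the dim Thbs2 at -0.36 (adjusted p = 0.00405). After quantile normalization the Thbs1 difference was 0.01 and not called (adjusted p = 0.982). Eln, the elastic fibre protein (0.01), and the dim Fbn2, a microfibril protein (-0.02), were not called.

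Of the small leucine-rich proteoglycans, which bind collagen fibrils, Bgn was bright and lay between 10.19 and 10.32 over the 9 arrays (0.05 in DOX minus Con, adjusted p = 0.559). It had the same level of 10.31 on DOX plus IFN-γ replicates 1 and 2, DOX replicate 3 and Con replicate 1, and it was called higher after quantile normalization (0.25 in DOX minus Con, adjusted p = 0.0160). Lum and Dcn, neighbours on mouse chromosome 10, were dim. Lum was called lower in DOX minus Con (-0.38, adjusted p = 0.00235) and in DOX plus IFN-γ minus Con (-0.26, adjusted p = 0.0144), and Dcn was not called (-0.13, adjusted p = 0.322). Without Con replicate 2, Lum lost its call in DOX plus IFN-γ minus Con (0.0501).

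Of the laminins and nidogen, 1 of 4 was called in each comparison with Con. Over all genes, 15.6% were called in DOX minus Con and 17.4% in DOX plus IFN-γ minus Con. Lamc1, the γ1 chain shared by most laminins, had levels of 8.95, 9.0 and 9.0 in DOX plus IFN-γ, 9.07, 9.04 and 8.97 in DOX and 9.92, 9.84 and 9.69 in Con. It was 1.73-fold lower in DOX than in Con (difference -0.79, SE 0.0661, adjusted p = 0.000108) and 1.78-fold lower in DOX plus IFN-γ than in Con (adjusted p = 7.69e-05). Lamb1, a laminin β chain, was not called (-0.06 in DOX minus Con), although it was called in DOX plus IFN-γ minus Con without DOX plus IFN-γ replicate 3 (adjusted p = 0.0450). Not called either was the dim Lama4, an α chain (0.02 in DOX minus Con). Nid1, a linker of laminin and type IV collagen, is shown per array because its Con arrays differed most of all matrix genes (SD 0.473), a choice made after its values were seen. Its levels were 12.05, 11.80 and 11.76 in DOX plus IFN-γ, 11.92, 11.92 and 11.85 in DOX and 11.80, 11.59 and 10.90 in Con, and it was not called (0.47 in DOX minus Con, adjusted p = 0.179). Con replicate 3 was the lowest of the 9 arrays, and without it the difference was 0.20 in DOX minus Con and 0.17 in DOX plus IFN-γ minus Con, not called. With the set of arrays as a block the DOX minus Con difference was 0.22 (adjusted p = 0.630), and after quantile normalization it was 0.72 and called (adjusted p = 0.0379).

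With interferon gamma added to the drug, no matrix gene passed the threshold against DOX. Limma called 0 of 40 matrix genes and 0% of the 30050 genes in DOX plus IFN-γ minus DOX, where 597 genes were higher and 906 lower at an unadjusted p under 0.05. The differences of the matrix genes lay between -0.28 and 0.12, with a median of -0.01. For 39 of the 40, the 95% interval lay within 0.5 of 0 on either side, and Postn was the exception (-0.29 to 0.53). Loxl1 (-0.28, 95% interval -0.47 to -0.08, unadjusted p = 0.0114, adjusted p = 0.976) was the only matrix gene at an unadjusted p under 0.05. The arrays did not overlap for Lum, which was higher, and for Col3a1, Col5a2, Loxl1 and Lama4, which were lower, against 4.56% of all genes higher and 6.69% lower (11.2% in either direction).

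**Figure D3:**
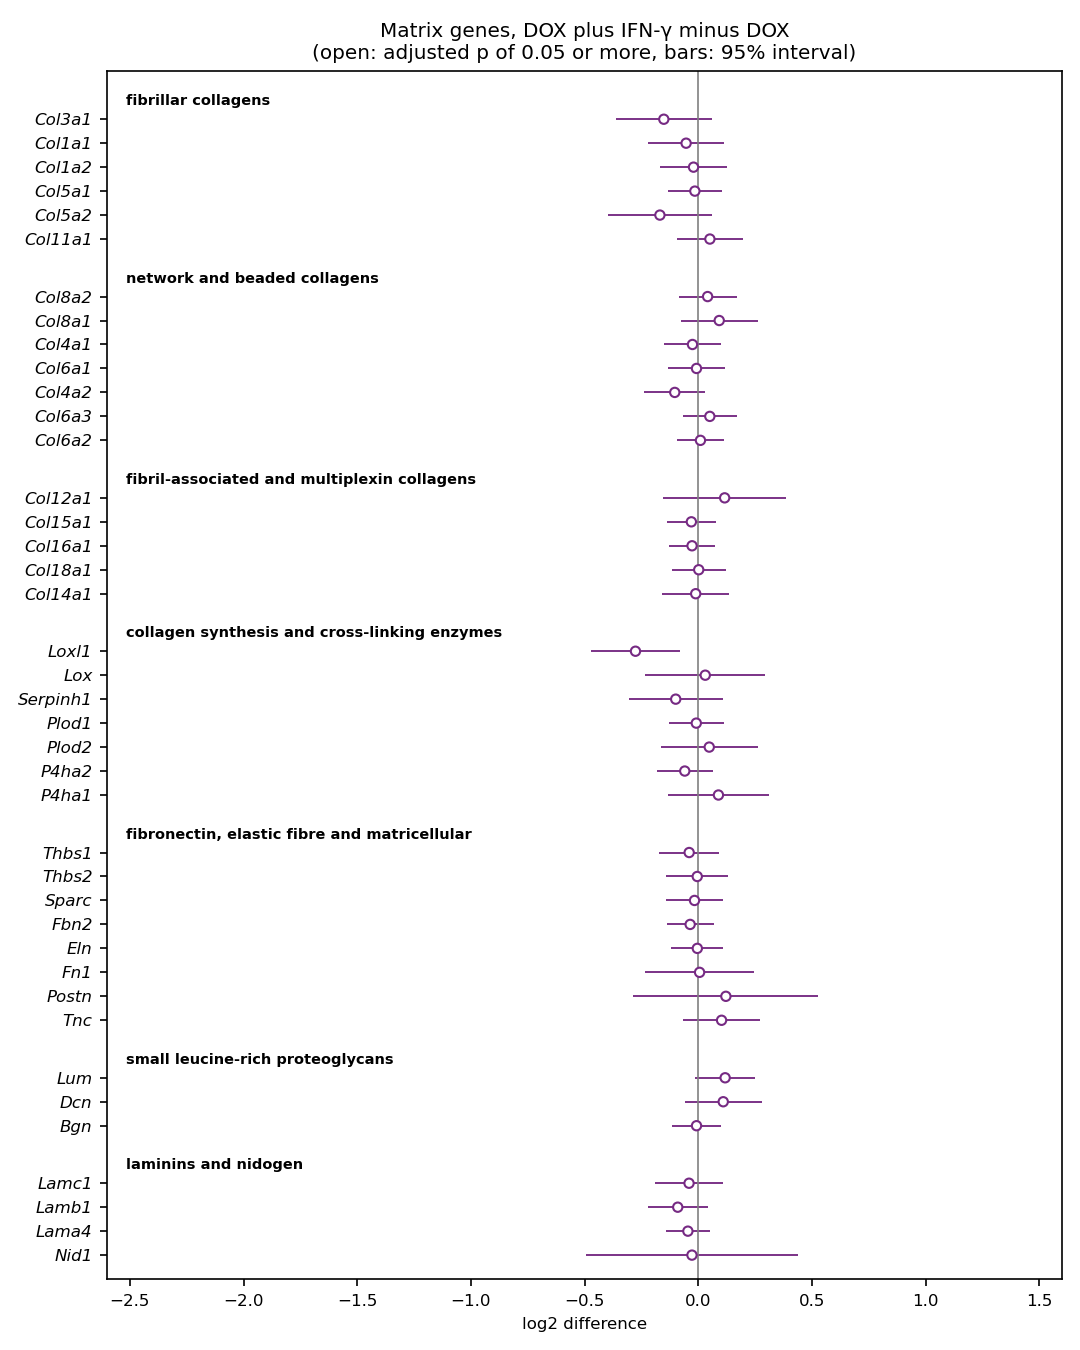
DOX plus IFN-γ minus DOX (log2 difference) for each of the 40 matrix genes by role, with bars as 95% intervals and open points for genes not called. The points lie between -0.28 for Loxl1 and 0.12, and the interval of Postn reaches 0.53.

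Differences from Con varied with the level at which genes were measured. Over all genes, the median of DOX minus Con was 0.00 at mean levels from 4.753 to 8, -0.10 from 8 to 12, -0.38 from 12 to 16 and -0.23 above 16. After quantile normalization of the 9 arrays it lay between -0.03 and 0.03 in every one of these ranges. The differences of the bright matrix genes moved as well. Col1a1 then differed by -0.83 in DOX minus Con (adjusted p = 0.0188) and -0.75 in DOX plus IFN-γ minus Con (adjusted p = 0.0277), Col1a2 by -0.72 and -0.66, and Col3a1 by -1.64 and -1.73, all still called lower. Fn1 differed by 0.75 in DOX minus Con (adjusted p = 0.00424), and Bgn (0.25, adjusted p = 0.0160) and Nid1 (0.72, adjusted p = 0.0379) became called higher. Thbs1 lost its call, at 0.01 (adjusted p = 0.982), and Sparc, at -0.17 as deposited, stood at 0.23 (adjusted p = 0.124). Of the genes under 8 with large changes, Loxl1 (-1.45), Col12a1 (-0.85) and Tnc (0.95) kept nearly the same difference. Over all genes, 51.7% of the DOX minus Con calls were higher as deposited, and 61.7% after quantile normalization. For DOX plus IFN-γ minus Con these shares were 46.0% and 57.5%.

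**Figure D4:**
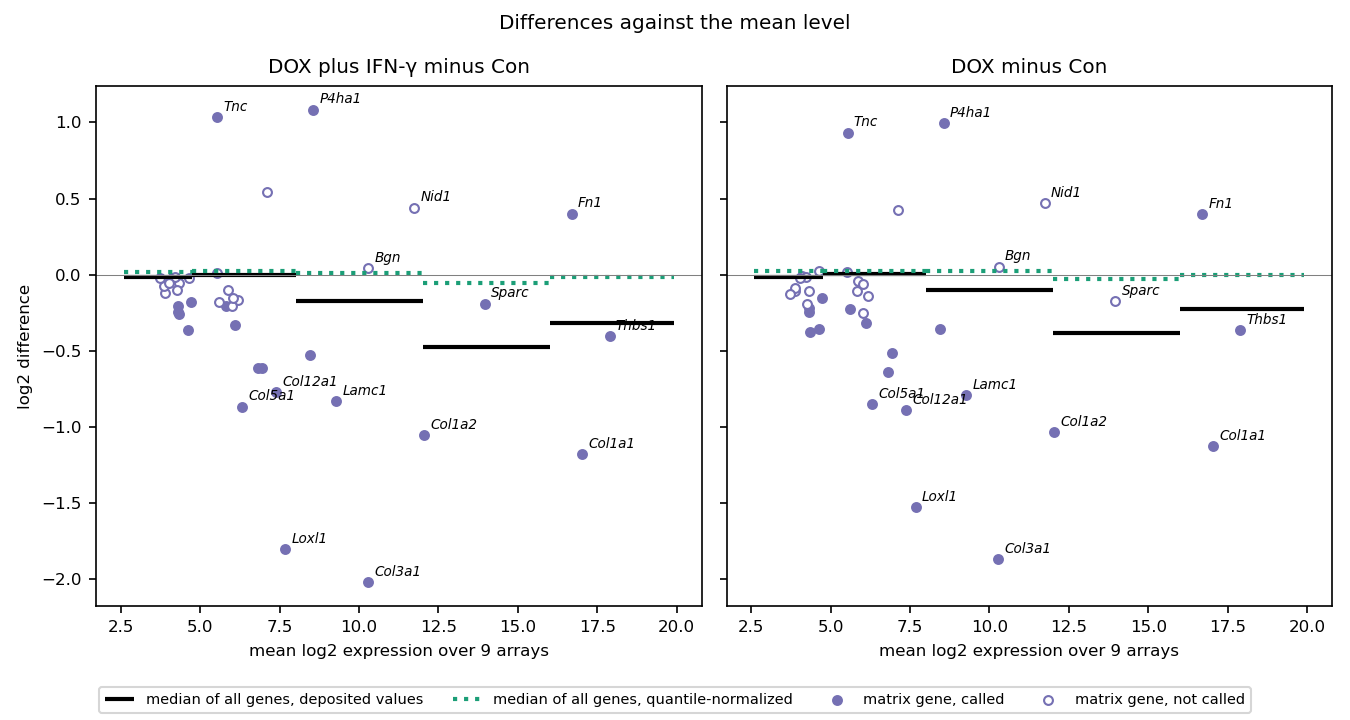
Differences from Con (log2) of the matrix genes against their mean level over 9 arrays, DOX plus IFN-γ minus Con on the left and DOX minus Con on the right, with solid lines for the median of all genes and dotted lines for that median after quantile normalization. The solid line falls to -0.38 between 12 and 16 in DOX minus Con, where Col1a2 (-1.03) lies below it and Sparc (-0.17) above it.

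With the 16 alternative settings tried, except the dim filter for genes that it removes, calls held throughout for 14 of the 21 matrix genes called in DOX minus Con, 12 lower and 2 higher. These were Col1a1, Col1a2, Col3a1, Col5a1, Col12a1, Serpinh1, Plod1, Lox, Loxl1, Thbs2, Lum and Lamc1, all lower, with P4ha1 and Tnc higher. In DOX plus IFN-γ minus Con, 15 of 22 held, the same genes without Lum and with Col5a2 and Col15a1. Within the set of 6 arrays that share identical values, 3 DOX arrays stand against 1 Con array, and the differences of these 14 genes were 0.841 to 1.33 times those over all arrays. For the 15 genes of DOX plus IFN-γ minus Con they were 0.812 to 1.36 times within that set (2 arrays against 1) and 0.741 to 1.14 times within the other 3 arrays (1 array against 2). These ratios are a description with no test, since the genes were picked by calls that include the fit with the set as a block. With the set of arrays as a block, 2 matrix genes were called higher and 15 lower in DOX minus Con. The counts of all genes there were 1906 and 1769. In DOX plus IFN-γ minus Con, 2 and 18 matrix genes were called, against 2266 and 2503 of all genes.

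Other matrix genes, taken from lists of related families, gave a mixed picture. Calls of single genes in these lists, and of the cell type markers, were not followed through the alternative settings. Of 124 measured genes in 7 lists, 17 were called higher and 20 lower in DOX minus Con, 18 higher and 27 lower in DOX plus IFN-γ minus Con, and 0 in DOX plus IFN-γ minus DOX (limma, with 2 higher and 5 lower at an unadjusted p under 0.05). Their median was -0.04 in DOX minus Con, and 59 lay above the dim limit. Over all genes, 8.06% were called higher and 7.53% lower in DOX minus Con, and 17.7% and 15.9% above the dim limit. For DOX plus IFN-γ minus Con these shares were 8.01% and 9.41%, and 17.4% and 20.0% above the limit. The 24 other collagens were nearly all dim, with 2 above the limit, and Col2a1 (-0.30) was called lower and the dim Col20a1 (0.24) higher.

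Genes of collagen processing and export included 9 of 22 called lower and 3 called higher in DOX minus Con. Over all genes, 7.53% were called lower and 8.06% higher. Of the 22, 17 lay above the dim limit, where 15.9% of genes were called lower and 17.7% higher. Loxl4, a further lysyl oxidase, ran opposite to Lox and Loxl1, with levels of 7.88, 7.95 and 8.23 in DOX plus IFN-γ, 8.43, 8.39 and 8.02 in DOX and 6.06, 5.84 and 5.85 in Con. It was 5.13-fold higher in DOX than in Con (difference 2.36, SE 0.132, adjusted p = 1.79e-05). Sec24d (-1.20), a coat protein of the vesicles that carry procollagen out of the endoplasmic reticulum, Kdelr2 (-1.04), a receptor that returns proteins to it, and Crtap (-0.89), a partner in prolyl 3-hydroxylation, were lower in DOX.

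Matrix receptors had 6 of 22 called higher and 3 lower in DOX minus Con, against 8.06% and 7.53% of all genes. Of the 22, 16 lay above the dim limit, where 17.7% of genes were called higher and 15.9% lower. Itga11, the α chain of a fibrillar collagen receptor, had levels of 9.43, 9.68 and 9.76 in DOX plus IFN-γ, 9.82, 9.89 and 9.30 in DOX and 7.45, 7.50 and 7.47 in Con, a difference of 2.20 (SE 0.151, adjusted p = 3.83e-05). Ddr2, a collagen receptor kinase, was higher at 0.91 (adjusted p = 0.00281). Itga5, the α chain of the main fibronectin receptor, had levels of 7.61, 7.60 and 7.59 in DOX plus IFN-γ, 7.74, 7.76 and 7.74 in DOX and 9.37, 9.38 and 9.73 in Con, a difference of -1.75 (SE 0.0924, adjusted p = 1.46e-05). Its ligand Fn1 lay higher in DOX, a call that most alternative settings did not keep. Itgb5, an integrin β chain that binds vitronectin, was lower at -1.31 (adjusted p = 4.16e-05).

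The remaining lists held smaller groups of changes in DOX minus Con, where 8.06% of all genes were called higher and 7.53% lower. Among 10 other basement membrane genes, 3 were called higher, Lamb2 (0.82), Lama5 (0.50) and Agrn (0.36), and 2 lower, including Hspg2 (-0.57), the proteoglycan perlecan. Lamb2 and Lama5 are laminin chains, so these laminin genes lay higher in DOX while Lamc1 lay lower. Of 17 other matricellular genes, Wisp1 (0.99), Wisp2 (0.96) and Ctgf (0.41) of the CCN family were called higher and Tgfbi (-1.36), a protein that binds collagen and integrins, lower. Of 14 other elastic fibre genes, Ltbp2 (0.74) was called higher and Emilin1 (-1.17) and Ltbp4 (-0.29) lower. Of 15 other proteoglycans, the glypicans Gpc6 (-1.34) and Gpc1 (-0.58) were called lower.

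**Figure D5:**
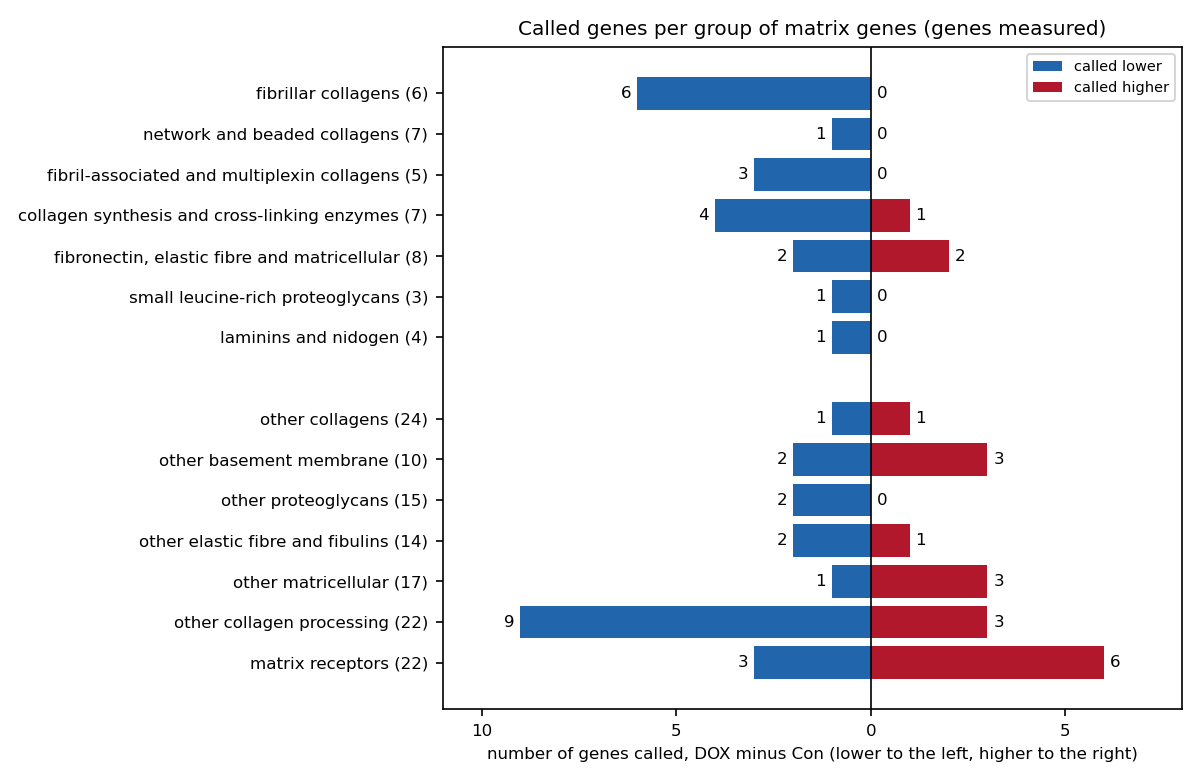
Number of genes called in DOX minus Con (adjusted p under 0.05), lower to the left and higher to the right, in each role group of the matrix genes and each list of other matrix genes, with the number of measured genes in brackets. All 6 fibrillar collagens were called lower in the main fit, while matrix receptors had 6 higher and 3 lower of 22. Of 17 fits, only 6 called Col5a2 and only 7 called Col11a1. Over all genes, 8.06% were called higher and 7.53% lower.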

How the data were processed

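RNA of 9 array samples, 3 per treatment, was grouped by the labels. Log2 values, deposited by the authors in 1 table and made with RMA per the submitters' processing notes, covered 65527 transcript clusters. No version or setting of RMA is named in the sources used here, and its scale was taken as log2 from values between 2.29 and 19.9. Array medians lay between 4.08 and 4.17, and the values were used as deposited. Of 32493 clusters in the platform annotation, 30376 had a single symbol and gave 30050 genes, and the cluster with the highest mean stood for 245 genes with several. RMA compresses differences of dim genes.

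Group means were fitted to all 9 arrays with limma 3.58.1 in R 4.3.3 (lmFit, contrasts.fit, eBayes), with 6 residual and 2.41 prior degrees of freedom. Tests were two-sided, with Benjamini-Hochberg adjustment over 30050 genes. The procedure was tested on simulated data. Precision is limited by having 3 arrays a group.

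The members and lists were chosen with earlier results of these data known. Values on every array are given for members called in a comparison with Con with an absolute difference of at least 0.5, and for Col11a1, Fn1, Sparc and Postn. Up to 4 called genes of each other list are named by size. Symbols of the other lists came from the same annotation, and 124 of 133 were measured. Promoter windows came from RefSeq (GRCm38.p6). Alternatives were quantile normalization, a dim filter, only the arrays of the groups compared, the replicate number or the set of arrays as a block, a prior variance with trend, the mean of a gene's clusters, and leaving out each array.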

Additional observations from a re-analysis of the deposited data

How the results depend on the processing

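Over 40 matrix genes and the alternatives, 569 of 626 values in DOX minus Con kept their side of the threshold, 51 lost a call, 5 gained one and 1 reversed. In DOX plus IFN-γ minus Con the counts were 569, 47, 9 and 1. Of the 569 in each, 13 and 11 changed sign without being called in either setting, as did 40 of 626 in DOX plus IFN-γ minus DOX, and the rest kept their direction. Quantile normalization reversed Thbs1 in DOX minus Con (0.0088, adjusted p = 0.982) and Sparc in DOX plus IFN-γ minus Con (0.30, adjusted p = 0.0510), and raised the matrix genes called higher to 5 in DOX minus Con and 6 in DOX plus IFN-γ minus Con. All genes called higher rose with it from 2423 to 3069 in DOX minus Con. In DOX plus IFN-γ minus Con they rose from 2407 to 3075, so the rise was not particular to the matrix genes. Bgn and Nid1 were gained in both comparisons and Postn in DOX plus IFN-γ minus Con (0.59, adjusted p = 0.0412), and the cause was not tested. The dim filter moved the median of the matrix genes to -0.24 in DOX minus Con, since it removes 14 dim genes.

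Leaving out 1 array in turn gave 2 to 3 matrix genes called higher and 13 to 18 called lower in DOX minus Con (median -0.18 to -0.15), and 2 to 4 and 15 to 18 in DOX plus IFN-γ minus Con (median -0.19 to -0.16). Over all genes it gave 1749 to 2381 called higher and 1580 to 2249 called lower in DOX minus Con, and 1682 to 2300 and 2049 to 2892 in DOX plus IFN-γ minus Con. In DOX plus IFN-γ minus DOX it gave 0 to 1 genes called lower, with 1 without Con replicate 3, and 0 matrix genes.

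With the replicate number as a block, 3 matrix genes were called higher and 16 lower in DOX minus Con. The counts of all genes there were 2270 and 2202. In DOX plus IFN-γ minus Con, 4 and 15 matrix genes were called, against 2293 and 2695 of all genes. Postn was gained in that comparison (0.54, adjusted p = 0.0259). The DOX minus Con call of Col11a1 was lost with the replicate number as a block (adjusted p = 0.0505). After each group's mean was subtracted, correlations of same-numbered arrays ran from -0.16 to 0.36, and those of other pairs across groups from -0.40 to 0.28. The highest, 0.36 and 0.33, were of same-numbered Con and DOX plus IFN-γ arrays. Since the ranges overlapped, the main fit did not pair the arrays by number. With the set of arrays as a block, Fn1 was not called (adjusted p = 0.144 and 0.0648), nor were Col4a2 (0.0880) and Sparc (0.0857) in DOX plus IFN-γ minus Con. The number of arrays and the dim signal of 14 matrix genes limit what could be detected.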
